A study of Bos indicus with 72 samples.

Results

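In Brahman heifers, beef cattle of the species Bos indicus, the ovaries held RNA of 8 annotated genes whose read counts rose after puberty when the left and right ovary of each animal were added together. The 8 genes are known here by their Ensembl cattle identifiers: ENSBTAG00000021588, ENSBTAG00000010899, ENSBTAG00000003268, ENSBTAG00000010347, ENSBTAG00000005339, ENSBTAG00000003944, ENSBTAG00000015978 and ENSBTAG00000024508. They were chosen by that difference in summed counts, from the 9 genes that passed its threshold upward, among 3212 genes tested there and 24616 in all the files. The files and the reference table used here do not pair these identifiers with gene names, so their products, positions and functions are not given.

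The study sequenced RNA of 12 heifers in hypothalamus, pituitary, liver, uterus, left ovary and right ovary, with 1 library per animal and tissue and 72 in all. By its labels each tissue held 6 pre-pubertal and 6 post-pubertal heifers. No treatment, age or genotype beyond the breed is labelled, and the labels do not say which ovary had ovulated. Animal 2054 is labelled pre-pubertal and animal 2059 post-pubertal in hypothalamus, pituitary and both ovaries, but the other way round in liver and uterus. Their liver and uterus libraries were left out of the comparisons of those tissues, which set 5 heifers against 5. In the ovaries they were kept as labelled, and the ovary values were also computed without them.

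Puberty in cattle is reached when the hypothalamus and pituitary drive a follicle of the ovary to ovulation for the first time. The ruptured follicle then becomes a corpus luteum, a gland that makes progesterone and takes up much of the ovary that carries it. Cattle usually ovulate from a single ovary in a cycle, so the ovaries of a cycling heifer need not be alike. The uterus responds to progesterone and oestrogen from the ovaries. In whole tissue, more cells of a type and more RNA per cell cannot be told apart.

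The ovary libraries held few reads in genes, although each held 29962368 reads or more in all. Reads in genes ranged from 185848 to 272306 per left ovary and from 184808 to 334454 per right ovary, against at least 4427245 in any library of the other tissues. In the ovaries they were between 0.352% and 1.10% of all reads, against 30.75% to 37.7% in hypothalamus and pituitary. The sources used here do not give the strand setting or annotation of the counting, so what sets the low share was not tested, and an ovary level is a level among the few reads that were assigned. Ovary levels are given as CPM, counts scaled so that the gene reads of every library add up to the same total. A count of 3 reads was worth between 8.97 and 16.2 CPM in the right ovaries and between 11.02 and 16.1 CPM in the left. The same gene, ENSBTAG00000043545, was the most abundant in every ovary library. Its share of gene reads in the right ovaries lay between 9.82% and 14.97% before puberty and between 11.4% and 33.1% after it. Animals 2047 and 2059 had the highest shares. In the left ovary of pre-pubertal animal 2060, 50.3% of reads were counted as not uniquely aligned, against 8.65% to 31.8% in the other left ovaries. A further 49.4% of its reads lay in no gene. With the most abundant gene taken out of the counts, the 8 summed changes lay between 1.28 and 3.72 on the log2 scale. How the reads without a unique alignment bear on the values below was not tested.

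Scaling sets part of the size of the ovary changes. The fitted log2 changes use TMM factors, which centre the bulk of genes, whereas CPM use library totals alone. With totals alone the median change over all genes tested was lower by 0.30 on the log2 scale in the summed ovaries, by 0.50 in the right ovary and by 0.11 in the left. Those of the 8 genes were lower by 0.34 to 0.39 in the summed ovaries, and those of the 5 genes fitted in the right ovary by 0.66 to 0.81 there, so fitted changes run above the ratio of the printed CPM.

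In the summed ovaries the level of ENSBTAG00000021588 lay between 3.87 and 15.2 CPM before puberty, with a median of 4.71 CPM. After puberty it lay between 26.5 and 106 CPM, with a median of 59.6 CPM. The groups did not overlap, but the pre-pubertal values rest on 18 reads over the 6 animals, against 204 reads after puberty. The log2 change was 3.69 ± 0.45 (SE), the largest of the 8. These counts chose the gene, so the change is a description and no test of it is given.

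The other 7 genes showed smaller log2 changes. ENSBTAG00000003944 differed by 2.30 ± 0.40 (SE) on the log2 scale and ENSBTAG00000024508 by 2.29 ± 0.47. ENSBTAG00000010899 followed with 1.80 ± 0.30 and ENSBTAG00000015978 with 1.41 ± 0.29. The remaining 3 lay close together, with 1.35 ± 0.25 for ENSBTAG00000005339, 1.31 ± 0.25 for ENSBTAG00000003268 and 1.26 ± 0.25 for ENSBTAG00000010347. The median log2 change was 1.61 over the 8 genes and -0.03 over all genes tested. In this contrast 0.311% of genes, and 0.28% as higher, were called by edgeR's quasi-likelihood test at a Benjamini-Hochberg adjusted p under 0.05, and all 8 genes are among them because the rule took them from there. The calls over all genes were 9 higher and 1 lower with TMM factors, and 14 higher and 41 lower with library totals alone. The member nearest to the threshold was ENSBTAG00000024508, with an edgeR adjusted p of 0.0462. The first rising gene outside it was ENSBTAG00000009828, with a log2 change of 3.31 ± 0.63 (SE), mean levels of 42.9 CPM before and 336 CPM after puberty and an edgeR adjusted p of 0.0515.

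Only 2 of the 8 genes had summed levels without overlap between groups. Besides ENSBTAG00000021588 this was ENSBTAG00000003268, with 26.0 to 48.0 CPM before puberty (median 34.3 CPM) and 52.8 to 93.6 CPM after it (median 63.5 CPM). For ENSBTAG00000024508, 4 of the 6 post-pubertal animals lay above the highest pre-pubertal one, and for the other 5 genes 5 did. Of all genes tested, 0.249% were separated in that direction.

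When the ovaries were taken by side, the difference lay mostly on the right. In the right ovary ENSBTAG00000021588 had a median of 7.71 CPM before puberty, with 20.5 CPM as the highest of 6, and a median of 103 CPM after it, with 48.7 CPM as the lowest of 6. Its right ovary log2 change was 4.41 ± 0.65 (SE), or 3.60 with library totals alone. In the left ovary its median was 3.97 CPM before puberty and 2.60 CPM after it, and its mean was 4.41 CPM before and 14.1 CPM after. The gene did not pass the filter on low counts on the left. Fitted without that filter, its left ovary log2 change was 1.85 ± 0.73 (SE). There the gene had no read in 3 of 6 pre-pubertal and 3 of 6 post-pubertal libraries, a count that allows up to 3 reads per library, or at most 16.1 CPM. Among post-pubertal left ovaries, that of animal 2057 stood alone at 66.1 CPM, from 18 reads, with the next at 13.5 CPM.

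ENSBTAG00000005339 was the gene with the most reads. Its right ovary level lay between 229 and 486 CPM before puberty (median 322 CPM) and between 564 and 1157 CPM after it (median 717 CPM), with no overlap. On the left it lay between 230 and 457 CPM before (median 283 CPM) and between 249.5 and 922 CPM after (median 369 CPM). Only the left ovary of animal 2057 exceeded the highest pre-pubertal value there. The log2 change was 1.97 ± 0.37 (SE) on the right, or 1.18 with library totals alone, and 0.74 ± 0.36 (SE) on the left. Without animal 2057 the left value was 0.18.

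The right ovaries of ENSBTAG00000010347 were also separated, at 54.1 to 166.5 CPM before puberty (median 121 CPM) and 186 to 548 CPM after it (median 226 CPM). The value of animal 2064, 548 CPM, was far above the next, 275 CPM. On the left the medians were 115 CPM before and 104.5 CPM after. The left ovary of animal 2057 again stood alone, at 360 CPM against a next value of 156 CPM. The log2 change was 1.88 ± 0.34 (SE) on the right, or 1.21 with library totals alone, where its call was lost at an edgeR adjusted p of 0.0811. On the left it was 0.56 ± 0.44 (SE), and -0.18 without animal 2057, so its sign there rests on that animal.

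In the right ovary ENSBTAG00000003268 lay between 7.72 and 46.3 CPM before puberty (median 25.7 CPM) and between 48.7 and 98.4 CPM after it (median 87.8 CPM). On the left its groups covered each other, with 27.6 to 74.7 CPM before (median 45.0 CPM) and 9.98 to 91.8 CPM after (median 59.4 CPM). Before puberty its mean was lower on the right, 24.5 ± 13.9 CPM, than on the left, 48.9 ± 22.4 CPM (SD, n = 6 each). The log2 changes were 2.39 ± 0.43 (SE) on the right, or 1.68 with library totals alone, and 0.29 ± 0.44 (SE) on the left. Without animal 2057 the left value was -0.09.

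ENSBTAG00000010899 had right ovary levels of 11.6 to 53.2 CPM before puberty (median 37.6 CPM) and 48.7 to 305 CPM after it (median 158 CPM). Animal 2061 was the only post-pubertal animal within the pre-pubertal range. On the left the gene lay between 15.9 and 137 CPM before (median 53.3 CPM) and between 22.0 and 119 CPM after (median 91.7 CPM). The log2 changes were 2.88 ± 0.45 (SE) on the right, or 2.18 with library totals alone, and 0.46 ± 0.51 (SE) on the left, or 0.19 without animal 2057.

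The last 3 genes had too few reads per ovary to pass the filter on low counts within a side. Fitted without that filter, their right ovary log2 changes were 2.87 ± 0.40 (SE) for ENSBTAG00000024508, 2.87 ± 0.45 for ENSBTAG00000003944 and 1.77 ± 0.42 for ENSBTAG00000015978. On the right ENSBTAG00000024508 lay between 7.72 and 27.8 CPM before puberty (median 15.9 CPM) and between 25.1 and 164 CPM after it (median 74.9 CPM). ENSBTAG00000003944 lay between 0 and 30.8 CPM before (median 8.49 CPM) and between 26.5 and 104 CPM after (median 58.6 CPM). ENSBTAG00000015978 lay between 7.72 and 27.8 CPM before (median 21.5 CPM) and between 21.6 and 67.4 CPM after (median 55.1 CPM). For each of the 3, 5 of 6 post-pubertal right ovaries lay above the highest pre-pubertal one. The exception was animal 2064 for ENSBTAG00000024508, animal 2056 for ENSBTAG00000003944 and animal 2061 for ENSBTAG00000015978.

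Their left ovary values overlapped between groups. ENSBTAG00000003944 had a median of 13.8 CPM before puberty and 25.4 CPM after it, and again animal 2057 stood apart, at 118 CPM from 32 reads. ENSBTAG00000015978 had medians of 16.8 CPM and 28.8 CPM, and ENSBTAG00000024508 of 8.54 CPM and 20.4 CPM. Fitted without the filter on low counts, their left ovary log2 changes were also positive. They were 1.55 ± 0.48 (SE) for ENSBTAG00000003944, 0.98 ± 0.58 for ENSBTAG00000024508 and 0.80 ± 0.50 for ENSBTAG00000015978. In all, 4 of the 8 genes were separated between groups in the right ovary and 0 in the left, where 0.531% and 0.0% of all genes tested were separated upward. The right ovary fit called 2.41% of all genes, 2.12% as higher, and the left ovary fit 0.0%. On the right these were 44 higher and 6 lower genes, against 17 and 9 with library totals alone. These shares are given beside the genes for scale only, since both sides entered the sum that chose them. Whether the change differed between sides was not tested for these genes.

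**Figure D1:**
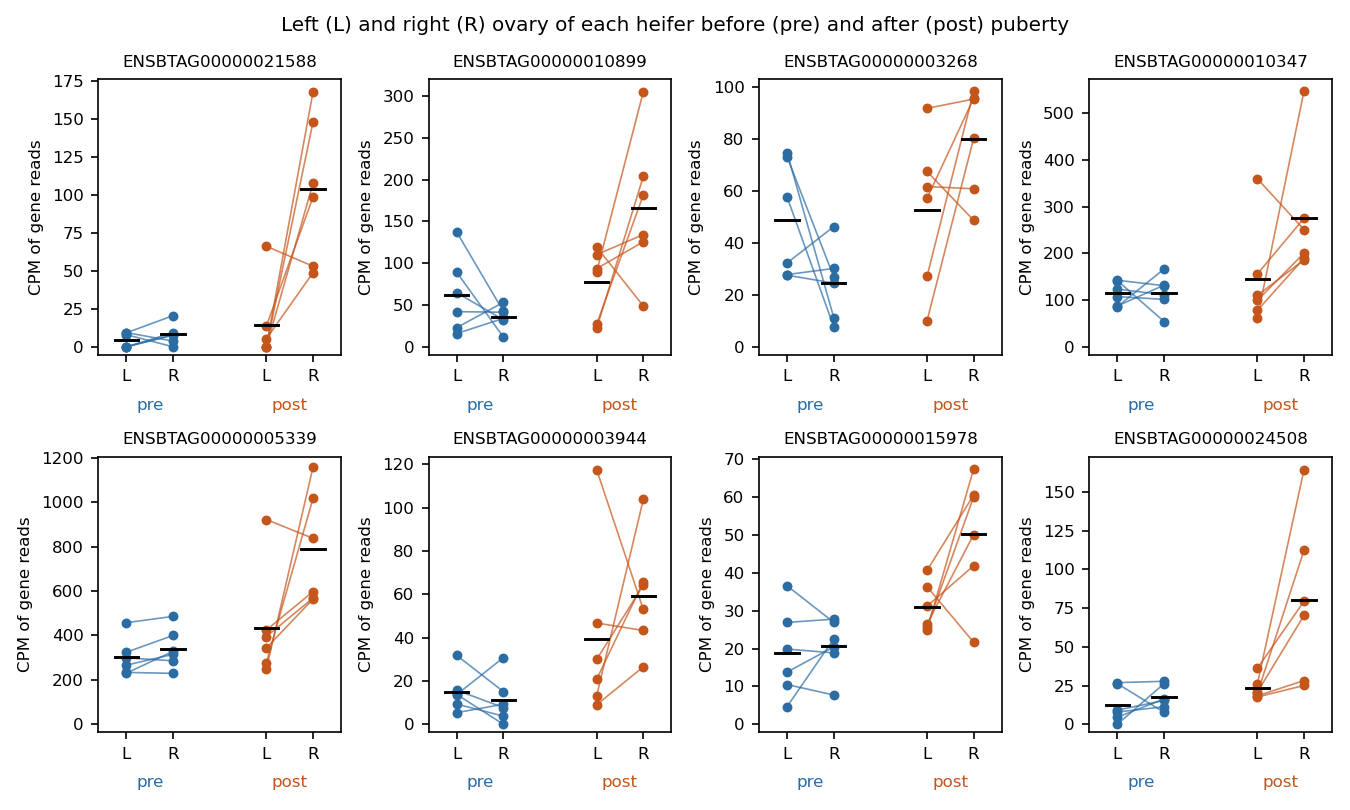
Level of each of the 8 genes (vertical axis, CPM of gene reads) in the left (L) and right (R) ovary, with 1 line per heifer, pre-pubertal animals in blue, post-pubertal in orange and group means as black bars. Most orange lines climb from left to right. Animal 2057 starts high on the left for several genes, at 922 CPM for ENSBTAG00000005339 and 66.1 CPM for ENSBTAG00000021588.

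Heifers differed in the side on which the genes were high. In post-pubertal animals 2047, 2056 and 2059 all 8 genes were higher in the right ovary than in the left, and in 2064 it was 7 of 8. In animals 2057 and 2061 it was 4 of 8. As a description with no test, Pearson's r between the left and right levels of a gene over the 6 animals of a group was positive for 2 of the 8 genes after puberty, with a median of -0.247. Before puberty it was positive for 3, with a median of -0.346. Of the 48 combinations of gene and animal in a group, 39 were higher on the right after puberty and 24 before it. Only 6 animals stand behind each count, so the combinations are not replicates. The share over all genes is not given here.

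The summed CPM of the 8 genes gives the same picture by animal. Before puberty the ratio of right to left lay between 0.610 and 1.33, with a median of 1.04. After puberty it was 4.41 in animal 2064, 3.30 in 2047, 2.20 in 2059, 2.20 in 2056, 1.35 in 2061 and 0.884 in 2057. Animal 2057 had the highest left value of the 12, 1711 CPM, beside 1512 CPM on the right. Animal 2061 had the lowest right value of the post-pubertal animals, 1039 CPM, and its right library was also the shallowest, with 184808 gene reads.

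A direct comparison of right with left over all 12 heifers, with the animal as a block, used another contrast than the rule. It used the same ovary libraries, and high right ovary counts after puberty raise both differences. Its values and p-values for these genes are therefore a description and support nothing. Left and right libraries also belong to different library sets, described below, so side and set cannot be told apart. Of the 8 genes, 4 passed the filter, and edgeR's quasi-likelihood test with Benjamini-Hochberg adjustment called 0 of them, as it called 0.0% of the 1922 genes tested. At an unadjusted p under 0.05 it found 2 of the 4, and 15.8% of all genes. ENSBTAG00000005339 was higher on the right by 0.75 ± 0.27 (SE) on the log2 scale, with an edgeR adjusted p of 0.211 and a higher right value in 9 of the 12 animals. ENSBTAG00000010347 was higher by 0.76 ± 0.32 (SE), with an edgeR adjusted p of 0.272, in 7 of 12 animals. For ENSBTAG00000010899 the value was 0.67 ± 0.46 (SE) and for ENSBTAG00000003268 it was 0.23 ± 0.42 (SE), with edgeR adjusted p of 0.484 and 0.802. With library totals alone 0 genes were called, and the value of ENSBTAG00000003268 was -0.06.

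Without the filter on low counts edgeR called 2 of the 8 genes as higher on the right and 0.48% of 17086 genes in either direction. ENSBTAG00000005339 then differed by 0.66 ± 0.17 (SE) with an edgeR adjusted p of 0.0208. ENSBTAG00000024508 differed by 1.499 ± 0.32 (SE) with an edgeR adjusted p of 0.00176, and it was higher on the right in 11 of 12 animals. DESeq2 called 0 of the 8 and 0.836% of 2511 genes, and gave ENSBTAG00000024508 an adjusted p of 0.104.

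File names place the ovary libraries of each side in 2 sets of 3 pre-pubertal and 3 post-pubertal animals, split in the same way on both sides. The left libraries are in sets 65 and 66 and the right ones in sets 67 and 68. Side and library set therefore cannot be told apart. The median difference over the 8 genes in mean log2 level in the right ovary was 1.34 in the first set and 2.27 in the second. In the left ovary it was 0.73 in the first set and 0.31 in the second. There all 8 genes were higher after puberty in the first set and 5 of 8 in the second. The largest left differences in the second set were 2.16 for ENSBTAG00000024508, 1.27 for ENSBTAG00000015978 and 1.25 for ENSBTAG00000003944. The same counts chose the genes, so these values describe the sets and test nothing. Animal 2057 belongs to the first set. Without animals 2054 and 2059, whose status is in doubt, the 8 summed changes lay between 1.30 and 3.46 on the log2 scale. Without animals 2047 and 2059, whose right libraries had the largest shares of the most abundant gene, they lay between 1.21 and 3.18. That of ENSBTAG00000024508 was then 1.49. In the right ovary alone all 5 fitted changes were smaller without these animals. They were 3.41 for ENSBTAG00000021588, 2.23 for ENSBTAG00000010899, 1.87 for ENSBTAG00000003268, 1.58 for ENSBTAG00000010347 and 1.35 for ENSBTAG00000005339.

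Within each group the 8 genes were also compared in how they ordered the heifers. Pearson's r was computed for the 28 pairs of genes over the log2 CPM of the 6 summed ovaries. It was positive in 20 pairs, with a median of 0.194 and a range from -0.565 to 0.852. In the pre-pubertal group it was also positive in 20 pairs, with a median of 0.159. No pair had an unadjusted exact permutation p of r under 0.05 in either group. For Spearman's rho the smallest exact permutation p that 6 animals allow is 0.00278. By Spearman's rho, ENSBTAG00000021588 and ENSBTAG00000003944 were at -0.943 before puberty. The exact permutation p of that rho was 0.0167, adjusted to 0.467. On a scale with TMM factors the post-pubertal median r was 0.548 and the pre-pubertal one 0.110. Leaving out 1 post-pubertal animal at a time moved that group's median between -0.010, without animal 2061, and 0.472, without animal 2059. In animal 2061 all 8 genes lay below their post-pubertal mean.

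The pair with the highest r after puberty was ENSBTAG00000010347 with ENSBTAG00000005339. Their r was 0.852 with a two-sided exact permutation p of 0.0708, adjusted to 0.661 over the 28 pairs. Spearman's rho was 0.771, with an exact permutation p of 0.103 and an adjusted p of 0.719. Without the 2 animals farthest from the median of ENSBTAG00000010347, 2057 and 2064, r over the few animals left was 0.949. The lowest r, -0.565, joined ENSBTAG00000010347 and ENSBTAG00000024508, with an exact permutation p of 0.244 and 0.952 for r without the same 2 animals, so its sign rests on them. Animals 2057 and 2064, which were highest for the former gene, had the lowest post-pubertal values of the latter, 23.4 and 21.7 CPM.

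**Figure D2:**
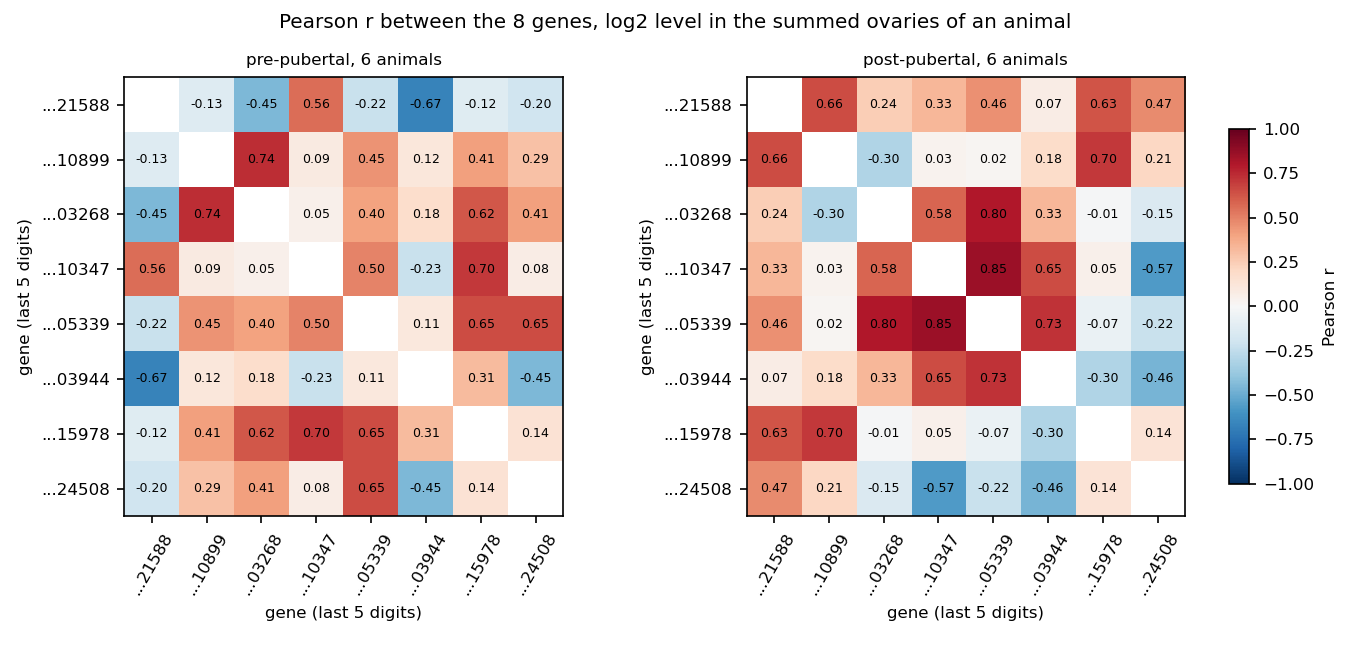
Pearson r between each pair of the 8 genes over the summed ovaries of 6 pre-pubertal heifers (left) and 6 post-pubertal heifers (right), with red for positive and blue for negative r. After puberty r is highest, 0.852, for ENSBTAG00000010347 with ENSBTAG00000005339, and lowest, -0.565, for ENSBTAG00000010347 with ENSBTAG00000024508. No pair had an unadjusted exact permutation p of r under 0.05 in either group.

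The mean of the 8 standardised log2 levels was compared with each of the 3212 genes tested over all 24 ovary libraries, after each group of status and side was centred. The genes outside the 8 with the most similar pattern were ENSBTAG00000007442, with r of 0.780, and ENSBTAG00000033565, with r of 0.721. Both had their highest mean in the post-pubertal right ovary, 105 CPM against 49.6 to 61.8 CPM in the other groups for the first and 103 CPM against 33.0 to 45.1 CPM for the second. Among the 8 genes themselves, r with the mean of the other 7 was 0.640 for ENSBTAG00000005339 and 0.576 for ENSBTAG00000010347. It was lowest for ENSBTAG00000021588, 0.106, and ENSBTAG00000024508, 0.105. The libraries of an animal and of a depth enter all these values, so the r values are a description.

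Levels per gene length could be set side by side across tissues for 7 of the genes, as RPKM, which divides reads by gene length and library total. The totals behind the deposited liver and uterus values were 1.11 to 1.25 times the gene reads used for the other tissues, so differences of that size between tissues carry no weight. Ovary RPKM moreover rest on the small share of reads assigned to genes given above, and how that share bears on the order of tissues was not tested. Of the 7 genes, 3 had their highest median in an ovary among the tissues with a row for them, and ENSBTAG00000003944, 1 of these 3, has no uterus row. ENSBTAG00000005339 had a median of 209 RPKM in the right and 124 RPKM in the left ovary over 12 libraries each. Its next tissues were far lower, with 16.2 RPKM in the pituitary, 15.3 in the liver, 13.2 in the hypothalamus and 8.61 RPKM in the uterus. The lowest left ovary, at 91.7 RPKM, lay above the highest pituitary library, at 27.9 RPKM.

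Among the 5 tissues with a row for it, ENSBTAG00000003944 was highest in the ovaries, with medians of 24.5 RPKM on the right and 12.6 RPKM on the left. It had 1.98 RPKM in the pituitary, 1.964 RPKM in the hypothalamus and between 0 and 0.0881 RPKM in the liver. The ovary and pituitary ranges overlapped. ENSBTAG00000003268 was the most even, with medians of 34.7 RPKM in the left ovary, 28.7 in the right, 17.6 in the pituitary, 17.3 in the uterus, 12.3 in the hypothalamus and 8.83 RPKM in the liver, and each neighbour in this order overlapped the next.

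ENSBTAG00000024508 also had its highest medians in the ovaries among 5 tissues, and the uterus was not analysed for it. Its liver value rests on 1 read, so its length is not known well and levels are in CPM. The median was 27.03 CPM in the right and 19.2 CPM in the left ovary. Elsewhere the highest library reached 2.66 CPM in the hypothalamus, from 22 reads, 0.695 CPM in the pituitary and 0.0475 CPM in the liver, where 11 of 12 libraries had no read. The lowest ovary library was at 0 CPM too, in a left ovary where 3 reads would be 14.01 CPM.

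For the other 4 genes an ovary was not the leading tissue. ENSBTAG00000021588 was by far most abundant in the pituitary, with a median of 3356 RPKM and a range from 2365 to 4431 RPKM. The hypothalamus came next, at 219 RPKM, and did not overlap with the right ovary, at 14.6 RPKM. Medians were 1.10 RPKM in the left ovary, 0.157 RPKM in the uterus and 0 RPKM in the liver, where 9 of 12 libraries had no read. Even the highest right ovary, 70.9 RPKM, lay below the lowest hypothalamus, 99.7 RPKM.

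ENSBTAG00000015978 was highest in the uterus, at a median of 205 RPKM, followed by the pituitary at 70.6 and the liver at 39.8 RPKM. In the ovaries its medians were 19.6 and 18.7 RPKM on the right and left. ENSBTAG00000010899 was also highest in the uterus, at 184 RPKM, with 124 RPKM in the hypothalamus and 87.6 RPKM in the pituitary. It had 71.2 RPKM in the left ovary, 47.2 RPKM in the right and 9.18 RPKM in the liver. ENSBTAG00000010347 led in the pituitary, at 117 RPKM, with 91.9 RPKM in the uterus and 65.2 RPKM in the right ovary. The ranges of those 3 tissues overlapped.

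**Figure D3:**
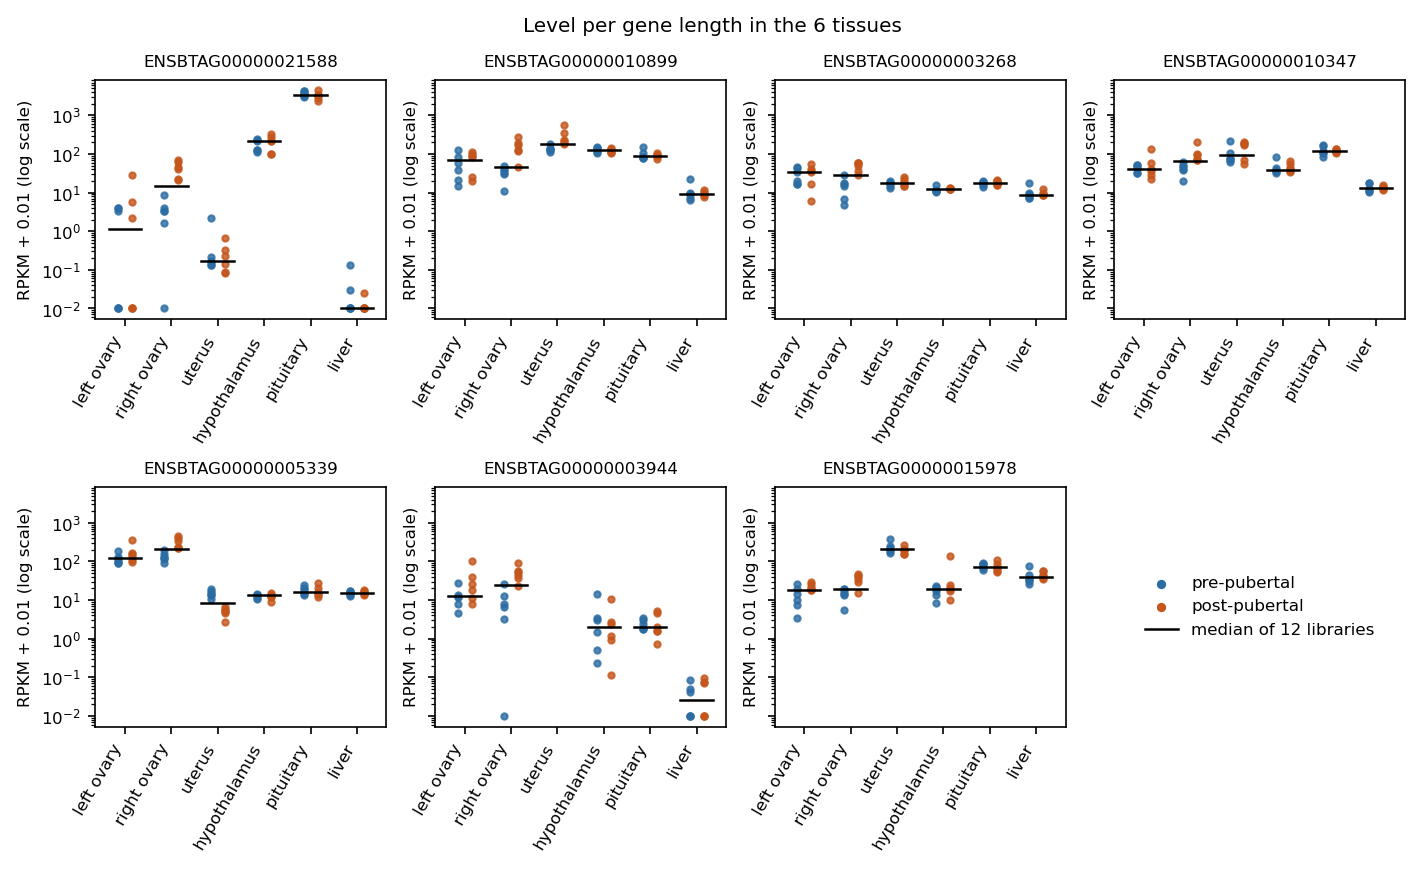
Level per gene length (vertical axis, RPKM + 0.01 on a log scale) of the 7 genes with a known length in 6 tissues, with 1 point per library, pre-pubertal in blue, post-pubertal in orange and the median of 12 libraries as a bar. ENSBTAG00000005339 is highest in the ovaries, at medians of 209 and 124 RPKM, whereas ENSBTAG00000021588 is highest in the pituitary, at 3356 RPKM. ENSBTAG00000003944 has no uterus row.

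The uterus is outside the rule. Of the 8 genes, 5 were tested there and 1 changed with puberty, in the opposite direction to the ovary. ENSBTAG00000005339 fell. Its 5 pre-pubertal values were 10.8, 18.9, 14.9, 13.3 and 13.8 RPKM. Its 5 post-pubertal values were 5.17, 5.32, 4.66, 6.46 and 5.93 RPKM. The groups did not overlap, as in 3.38% of genes in that direction, and the means were 14.3 ± 2.98 and 5.51 ± 0.70 RPKM (SD, n = 5 each). On log2(RPKM + 0.5) the change was -1.29 ± 0.16 (SE), and limma gave an adjusted p of 0.00337 over 13065 genes. In the uterus limma called 3.64% of genes, and 1.66% as lower after puberty.

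The fall of ENSBTAG00000005339 was -1.47 in the first library set of the uterus and -1.01 in the second. For this gene the libraries in doubt lay on the side of their uterus labels: animal 2054, labelled post-pubertal there, was at 2.71 RPKM and animal 2059, labelled pre-pubertal there, at 17.5 RPKM. These levels do not settle which labels are right. With both added as labelled the change was -1.49, with a limma adjusted p of 0.00076. In the summed ovaries the same gene went from 322 ± 85.3 to 644 ± 180 CPM (SD, n = 6 each).

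ENSBTAG00000010899 had higher uterine levels after puberty, but its test did not pass. Its pre-pubertal values were 128, 133, 111, 135 and 184.5 RPKM. Its post-pubertal values were 567, 225, 219, 193 and 183.5 RPKM, so 4 of 5 lay above the highest pre-pubertal one and animal 2047 far above the rest. The change was 0.87 ± 0.29 (SE) with a limma adjusted p of 0.123. Without animal 2047 it was 0.58 with a limma adjusted p of 0.0998. With animals 2054 and 2059 included under their uterus labels it was 0.95 with a limma adjusted p of 0.0290.

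The other 3 genes tested in the uterus did not pass the threshold. The log2 change of ENSBTAG00000010347 was 0.37 ± 0.45 (SE), that of ENSBTAG00000003268 was 0.20 ± 0.18 and that of ENSBTAG00000015978 was -0.13 ± 0.22, with limma adjusted p of 0.694, 0.589 and 0.799. ENSBTAG00000021588 was too low to be tested. Its uterine values lay between 0.0724 and 0.319 RPKM in 9 of the 10 libraries compared, and reached 2.17 RPKM in pre-pubertal animal 2055. ENSBTAG00000003944 and ENSBTAG00000024508 have no uterus row and were not analysed there.

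**Figure D4:**
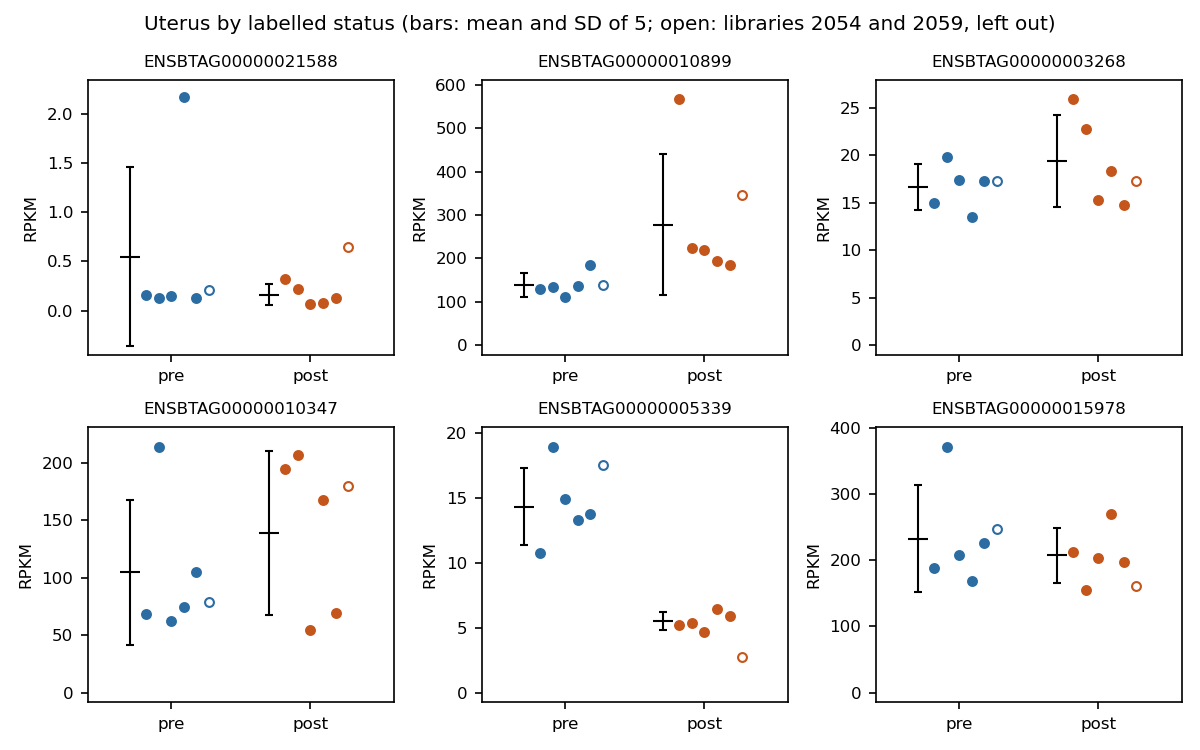
Uterine level (vertical axis, RPKM) of the 6 genes with a uterus row by labelled status, with 1 filled point per heifer compared, the mean and SD of 5 as a bar, and the libraries of animals 2054 and 2059 as open points. For ENSBTAG00000005339 the 5 post-pubertal values, 4.66 to 6.46 RPKM, lie below the 5 pre-pubertal values, 10.8 to 18.9 RPKM.

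In the hypothalamus edgeR called 0 of the 7 genes tested and 0.0% of 13713 genes, with 0 of the 7 and 3.46% of all genes at an unadjusted p under 0.05. The largest log2 change was that of ENSBTAG00000015978, 1.10 ± 0.55 (SE), with an edgeR adjusted p of 0.979. It rests on post-pubertal animal 2047, at 190 CPM, where the other 5 post-pubertal animals lay between 13.96 and 34.8 CPM and the 6 pre-pubertal ones between 11.8 and 32.0 CPM. Without animal 2047 it was 0.15. ENSBTAG00000021588 had medians of 416 CPM before and 518 CPM after puberty and a log2 change of 0.23 ± 0.30 (SE).

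The pituitary gave 0 calls among the 7 genes tested and 0.0% among 13335 genes by edgeR, with 0 of the 7 and 1.52% of all genes at an unadjusted p under 0.05. There ENSBTAG00000021588 lay between 7266 and 10130 CPM before puberty (median 8625 CPM) and between 5585 and 10470 CPM after it (median 7864 CPM). Its log2 change was -0.23 ± 0.15 (SE), with a 95% interval from -0.52 to 0.07 and an edgeR adjusted p of 0.9999. The 7 log2 changes lay between -0.23 and 0.06.

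In the liver limma called 0 of the 5 genes tested and 0.0% of 11697 genes, with 0 of the 5 and 1.71% of all genes at an unadjusted p under 0.05. The 5 changes lay between -0.07 and 0.19 on the log2(RPKM + 0.5) scale. ENSBTAG00000005339, at 14.7 ± 1.88 RPKM before and 15.5 ± 1.82 RPKM after puberty (SD, n = 5 each), had a change of 0.08 ± 0.13 (SE) with a 95% interval from -0.18 to 0.34. ENSBTAG00000021588, ENSBTAG00000003944 and ENSBTAG00000024508 were too low in the liver to be tested.

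**Figure D5:**
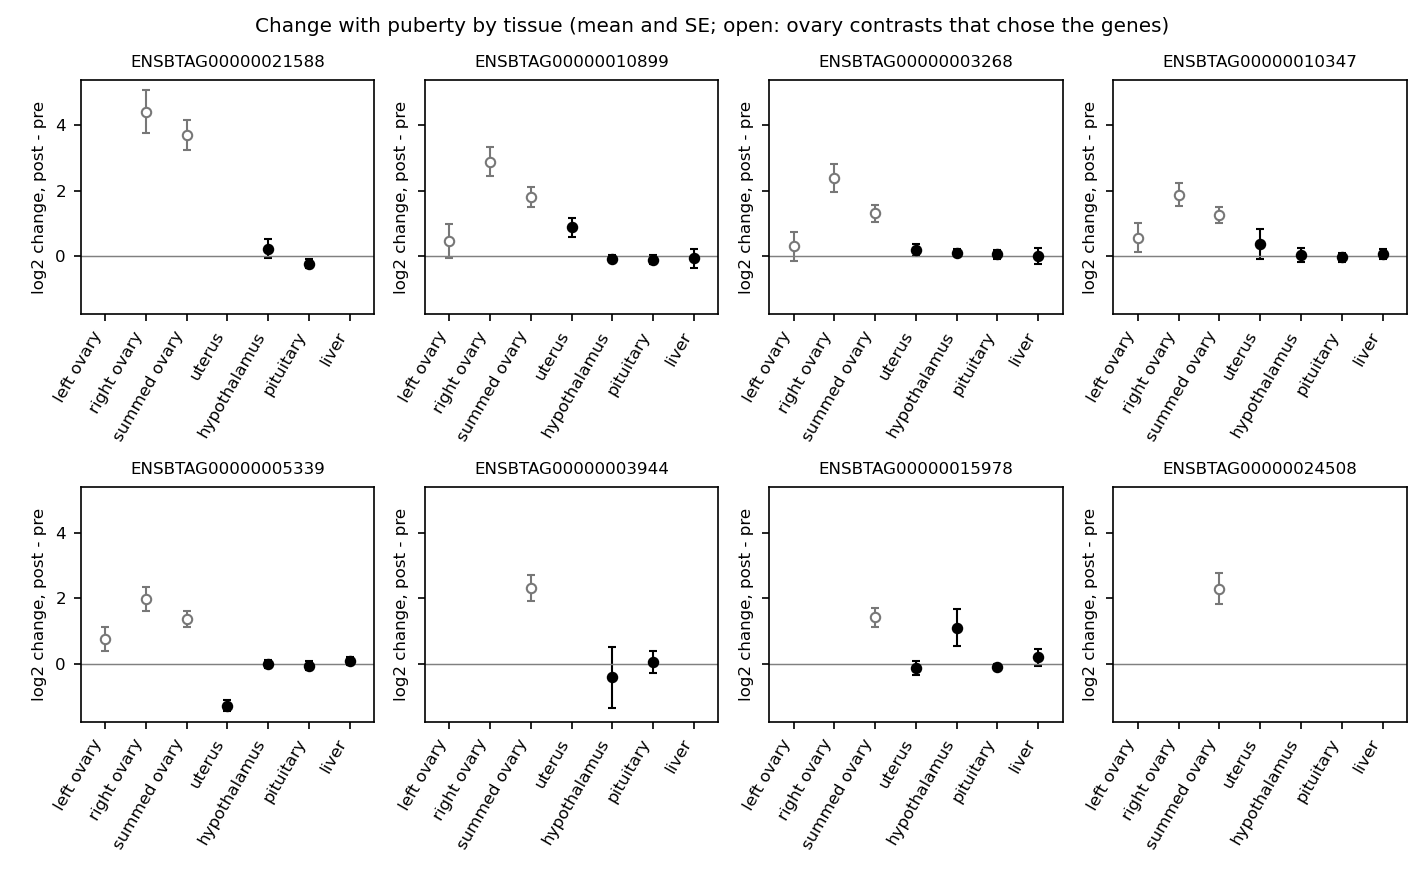
Log2 change from pre-pubertal to post-pubertal (vertical axis, mean and SE) of each of the 8 genes by tissue, with open grey points for the ovary contrasts that entered the choice of genes and filled black points for the other tissues. A missing point means that the gene was not tested there. The black point farthest below 0 is ENSBTAG00000005339 in the uterus, at -1.29. Those farthest above 0 are ENSBTAG00000015978 in the hypothalamus, at 1.10, and ENSBTAG00000010899 in the uterus, at 0.87.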

How the data were processed

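RNA of 6 tissues of 12 heifers was made into TruSeq libraries and sequenced from both ends, per the labels' protocols. Per the submitters' processing notes the reads were placed on build UMD 3.1. How they were aligned, with which annotation and whether by strand is not given in the sources used here, so genes that overlap, lie antisense or have near copies may share reads. For hypothalamus, pituitary and ovaries the files hold read counts per gene as deposited by the authors, with no scaling. Rows that name no gene were left out. They held at least 98.9% of ovary reads. For the liver the authors deposited RPKM, from which whole reads were recovered within 0.003 reads for 17852 of 17853 genes. For the uterus the deposited values were the size, without sign, of log2(RPKM + 0.001). Signs were taken from whole reads. Of the values, 1.13% had a sign that could not be settled, none of them in the 8 genes, and 11 of the 12 values of ENSBTAG00000021588 were read as below 0.

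Groups came from the labelled status and animal number, and each heifer was a replicate. The 8 genes, the lists and the tests were chosen with earlier results of these data known. All 8 genes are named. The 2 genes of most similar pattern and the first gene outside the threshold were to be named by rule. Cell type markers could not be used, since 0 of the identifiers matched the 34142 genes of the reference table. Counts were tested with edgeR 4.0.16 (R 4.3.3, quasi-likelihood F test, TMM factors, filterByExpr, robust), and liver and uterus with limma 3.58.1 on log2(RPKM + 0.5), keeping genes that reached 0.5 RPKM in 5 libraries. Tests were two-sided, and p-values were adjusted by Benjamini-Hochberg over all genes tested, with 0.05 as the threshold. SE values of edgeR changes come from the F statistic. The 95% intervals take the normal distribution around the change, so with so few animals they are somewhat too narrow.

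RPKM of tissues with counts used gene reads as the total and lengths recovered from the liver values. The totals behind the authors' RPKM were 1.11 to 1.25 times the gene reads, so ovary, hypothalamus and pituitary levels are that much higher on the common scale. Right and left ovaries were paired by the labelled animal number. Over all genes tested, their deviations from group means had a median r of 0.268 between the ovaries of an animal. It passed 0.1 in 11 of the 12 and was -0.0455 in animal 2047. Limits at a count of 0 take 3 reads and cover counting error only. Alternatives included DESeq2 1.42.0, limma voom and leaving out animals. Scaling by library totals alone was added after seeing the data.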

Additional observations from a re-analysis of the deposited data

Results flagged for a closer look

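In 20 of 73 groups of 5 or 6 libraries, 1 value stood far from the rest by Dixon's criterion. Chance gives about 1 in 20 groups if values are normal and groups independent. Here the same libraries recur across genes, so the excess over that rate was not tested. The left ovary of post-pubertal animal 2057 was such a value for 4 genes, at 66.1 CPM for ENSBTAG00000021588, 360 CPM for ENSBTAG00000010347, 922 CPM for ENSBTAG00000005339 and 118 CPM for ENSBTAG00000003944. The right ovary of animal 2064 was another, at 548 CPM for ENSBTAG00000010347.

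In the hypothalamus pre-pubertal animal 2049 stood apart for 4 genes. It had 25.6 CPM of ENSBTAG00000003268, 221 CPM of ENSBTAG00000010347, 16.5 CPM of ENSBTAG00000003944 and 2.66 CPM of ENSBTAG00000024508, the last from 22 reads. Post-pubertal animal 2047 stood apart there with 12.6 CPM of ENSBTAG00000003944 and 190 CPM of ENSBTAG00000015978. The fitted change of ENSBTAG00000003944 in the hypothalamus was -0.41 with all animals, 0.66 without animal 2049 and -1.31 without animal 2047.

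The liver library numbered 2055, pre-pubertal, held 22.4 RPKM of ENSBTAG00000010899, 17.9 RPKM of ENSBTAG00000003268 and 77.2 RPKM of ENSBTAG00000015978, where the next pre-pubertal values were 9.47, 9.02 and 35.4 RPKM. The uterus library of the same number held 2.17 RPKM of ENSBTAG00000021588, from 111 reads, where the next pre-pubertal value was 0.159 RPKM. In the pituitary animal 2055 had 166 CPM of ENSBTAG00000010899. Post-pubertal animal 2061 had 12.5 RPKM of ENSBTAG00000003268 in the liver.

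Further values in the uterus were those of post-pubertal animal 2047, 567 RPKM of ENSBTAG00000010899, and of pre-pubertal animal 2048, 214 RPKM of ENSBTAG00000010347 and 371.5 RPKM of ENSBTAG00000015978.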

How the results depend on the processing

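The summed and single ovary counts chose the 8 genes, so their calls there show how the choice depends on settings and support nothing. In the summed ovary DESeq2, RLE factors, no filter on low counts, a term for the library set and taking out the most abundant gene each called 8. Over all genes those settings called 1.84% of 6478 with DESeq2, 1.22% of 17086 without the filter and 0.311% to 0.409% in the others. Library totals alone, added after seeing the data, called 5, beside 1.71% of all genes. Voom with quality weights called 2, beside 0.0623%. Leaving out 1 animal at a time left between 4 and 8, beside 0.119% to 2.31%. Without animals 2054 and 2059 there were 3, beside 0.219%. Without 2047 and 2059 there was 1, ENSBTAG00000021588, beside 0.028%. The lost calls kept their direction, and the smaller number of animals is part of those settings. In the right ovary 5 genes were called, beside 2.41% of all genes, and 4 with library totals alone, beside 1.25%. There DESeq2 called 8, beside 3.99% of 4511 genes, and edgeR without the filter called 8, beside 1.66% of 15978. Both let in the 3 genes left out. With 1 animal left out 5 to 7 were called, beside 0.937% to 4.04% of all genes. In the left ovary 0 were called under every setting run. Between sides 0 were called, 2 without the filter and 0 without the replicate block, where the 4 changes lay between 0.44 and 1.05. In the uterus 1 gene, ENSBTAG00000005339, was called, beside 3.64% of all genes. With animals 2054 and 2059 added as labelled it was 2, and the share over all genes is not given here. The fall of ENSBTAG00000005339 lay between -1.18 and -1.49 and passed the threshold in all 16 settings. No gene was called in the hypothalamus, pituitary or liver under any setting run. No called change reversed sign. Of the changes that were not called, 39 values under alternatives had the other sign, 12 of them in the hypothalamus and 12 in the pituitary. The few ovary reads in genes limit these results: a level under 3 reads in a library cannot be told from 0.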
